A study of Mus musculus with 11 samples.

Results

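Neurexins, neuroligins and the adhesion proteins that work beside them hold the membranes of a synapse together, and the fragments of 9 of their mRNAs that were recovered with FMRP are described here across 3 regions of the young mouse brain. The genes are Nrxn2 and Nrxn3 (neurexins), Nlgn1, Nlgn2 and Nlgn3 (neuroligins), Igsf9b (an immunoglobulin superfamily adhesion protein) and Ptprs, Ptprd and Ptprf (receptor phosphatases of the LAR type). They were taken by symbol from the deposited table of fragment counts, and 9 of its 30986 rows carry these symbols. FMRP binds RNA in neurons, its loss causes Fragile X syndrome, and the series title names the phosphodiesterase PDE2A as a target in that disease. Each library holds RNA fragments that were crosslinked with ultraviolet light and immunoprecipitated with FMRP from brain tissue of mice at postnatal day 13. There were 2 samples of cerebellum, 3 of cortex and 4 of hippocampus, and the samples of cortex and hippocampus together are called forebrain. The labels give no strain, sex, genotype or number of animals, so p-values rest on how far these libraries vary, in part perhaps for technical reasons. Neither input RNA nor a library lacking FMRP was analysed here, so the amount of an mRNA and its binding cannot be told apart in these values, nor can fewer cells of a type and less RNA per cell.

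Neurexins stand on the presynaptic membrane and bind neuroligins across the cleft, and alternative splicing of neurexins sets which partner they prefer. Neuroligin 1 is known for excitatory synapses, neuroligin 2 for inhibitory synapses, and neuroligin 3 occurs at both. Igsf9b is an adhesion protein of inhibitory synapses that was described together with neuroligin 2 through the scaffold S-SCAM. PTPσ, PTPδ and LAR, the products of Ptprs, Ptprd and Ptprf, are presynaptic organisers that bind postsynaptic partners such as Slitrk proteins, interleukin-1 receptor accessory proteins and TrkC. Several of these mRNAs are long and neuronal, like many mRNAs that FMRP is known to bind.

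The 9 genes are protein coding in the GENCODE annotation of GRCm38, the build also called mm10. Nrxn2 lies on chromosome 19 from 6418731 to 6544169 (plus strand) and Nrxn3 on chromosome 12 from 88722876 to 90334935 (plus strand). Nlgn1 lies on chromosome 3 from 25426215 to 26332460 (minus strand), Nlgn2 on chromosome 11 from 69823122 to 69837784 (minus strand) and Nlgn3 on chromosome X from 101299168 to 101325963 (plus strand). Igsf9b lies on chromosome 9 from 27299204 to 27357546 (plus strand), Ptprs on chromosome 17 from 56412426 to 56476483 (minus strand), and Ptprd and Ptprf on chromosome 4 from 75941238 to 78211961 and from 118208213 to 118291405 (minus strand). Nlgn2 spans 14.7 kb of the genome and Ptprd 2271 kb, while their exons together cover 5.74 and 10.6 kb. Other annotated genes overlap 7 of the 9, among them Slc22a12 and an antisense gene at Nrxn2, and an antisense gene each at Nlgn1 and Ptprd. Whether strand was used in counting is not given in the sources, so fragments of such partners cannot be told apart from those of the genes named. Nlgn2 and Igsf9b overlap no other annotated gene.

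The genes within a family resemble each other, so the coding sequences were compared to see how far a short fragment could belong to either of a pair. The longest coding stretch without a difference measured 23 bases between Nrxn2 and Nrxn3, 17 to 23 bases among the neuroligins and 21 to 27 bases among the phosphatases. No window of 30 coding bases was shared by any of these 7 pairs, and windows of 20 bases were shared for at most 0.321% of a gene's windows. The longest runs are shown for a pair of neurexins, for Nlgn1 with each of the other neuroligins and for the phosphatase pair with the longest run, since fragments shorter than these could be counted for either gene. Each is read 5′ to 3′ on the coding strand of the GENCODE transcript with the longest coding sequence, and capitals mark the run that the pair shares.
Nrxn2 with Nrxn3: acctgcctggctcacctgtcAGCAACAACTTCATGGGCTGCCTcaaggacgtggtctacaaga
Nrxn3 with Nrxn2: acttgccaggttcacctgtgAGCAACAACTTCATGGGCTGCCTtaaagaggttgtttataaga
Nlgn1 with Nlgn2: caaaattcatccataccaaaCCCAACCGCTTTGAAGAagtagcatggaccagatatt
Nlgn2 with Nlgn1: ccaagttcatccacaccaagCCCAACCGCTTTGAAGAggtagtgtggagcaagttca
Nlgn1 with Nlgn3: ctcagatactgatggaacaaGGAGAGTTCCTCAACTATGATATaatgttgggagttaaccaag
Nlgn3 with Nlgn1: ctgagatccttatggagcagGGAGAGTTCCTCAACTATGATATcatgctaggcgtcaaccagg
Ptprs with Ptprf: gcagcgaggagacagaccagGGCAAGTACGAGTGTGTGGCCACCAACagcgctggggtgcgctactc
Ptprf with Ptprs: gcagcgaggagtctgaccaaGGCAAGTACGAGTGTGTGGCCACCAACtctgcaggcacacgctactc

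The Nlgn1 stretches lie at chr3:25434375-25434431 (shared with Nlgn2) and chr3:25436334-25436396 (shared with Nlgn3), the Nlgn2 stretch at chr11:69825994-69826050 and the Nlgn3 stretch at chrX:101318175-101318237, all in coding exons. The Ptprs stretch lies at chr17:56447386-56447452 and the Ptprf stretch at chr4:118248925-118248991. The neurexin stretches cross an exon border, from 6472370 to 6473330 on chromosome 19 for Nrxn2 and from 89193158 to 89254686 on chromosome 12 for Nrxn3. The bases on both sides of each run differ between the partners. The sources give no fragment lengths.

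Library totals were 95454 and 197382 counts in cerebellum, 11898 to 55784 in cortex and 21531 to 130306 in hippocampus. Levels are given as CPM, counts per 1000000 counts of the library, with exact Clopper-Pearson 95% intervals where shown. These intervals cover counting error only, because amplified fragments are not independent molecules. The difference between hippocampus 1 and 2 could not be told apart from sampling noise (p = 0.191 in a chi-square test of their counts), and they were counted as 1 sample, hippocampus 1+2. Cortex 3, hippocampus 3 and hippocampus 4 stood apart by their large share of counts on predicted gene names, at 15.9, 16.1 and 15.5%, against 4.97 to 10.2% in the other 6 samples. Values without them are given below. Sample titles carry a code whose meaning the labels do not give: the first code covers cerebellum 1, cortex 1 and hippocampus 1+2, the second cerebellum 2 and hippocampus 3, and the third the remaining samples of cortex and hippocampus. The third code holds no cerebellum sample. Means and overlaps in CPM that set cerebellum against all 7 forebrain samples therefore mix region with code. Tests are those of edgeR's quasi-likelihood model with the title code as a block, fitted on all 1720 rows that passed a filter on low counts, with Benjamini-Hochberg adjusted p under 0.05 as the threshold. All 9 genes passed that filter. Under the block, the second code adds to the cerebellum contrast only while both cerebellum 2 and hippocampus 3 are in the fit. Without either of them that contrast rests on cerebellum 1, and without cerebellum 1 it rests on cerebellum 2. Values without cortex 3, hippocampus 3 and hippocampus 4 therefore cannot show the part of these 3 samples alone.

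The tissue labels were checked against marker genes. Granule cell markers, 12 of 12 with counts in cerebellum, summed to 6399 and 7878 CPM there and to 260.4 to 882.4 CPM in the 7 forebrain samples. Purkinje cell markers summed to 3593 and 3840 CPM in cerebellum against 690.4 to 1335 CPM in forebrain. Of the granule cell markers Gabra6, Zic2, Cbln3 and Pax6 were at 0 in cortex, as were Pcp2 and Pvalb of the Purkinje cell markers. Telencephalic excitatory neuron markers summed to 419 and 532 CPM in cerebellum against 1177 to 3344 CPM in forebrain. Hippocampal neuron markers summed to 1135 and 1226 CPM in cerebellum, 420.2 to 896.3 CPM in cortex and 997.3 to 2880 CPM in hippocampus, with Calb2 at 0 in cortex, so they set hippocampus apart from cortex but not from cerebellum. Astrocyte markers summed to 1353 and 1488 CPM in cerebellum against 840.5 to 5388 CPM in forebrain. GABAergic interneuron markers summed to 952.5 and 995.2 CPM in cerebellum, where Npy was at 0, against 552.5 to 860.5 CPM in forebrain. Oligodendrocyte lineage markers summed to 869.5 and 1216 CPM in cerebellum against 252.1 to 968 CPM in forebrain. The part of these cell types in the differences below was not tested.

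In the edgeR fit with the block, fragments of Igsf9b were called more abundant in cerebellum than in forebrain and those of Nlgn1 less abundant. The other 7 genes did not pass the test. Neither call held in every setting. With library totals alone 0 of the 9 passed (edgeR). Among fits that left out 1 sample, the Igsf9b call held only without cortex 3, and the Nlgn1 call was lost in some. Nlgn1 entered the test only through forebrain samples, the group in which it is high, so it could only be called lower in cerebellum. Without overlap between the groups' CPM, 2 of the 9 (Nrxn3 and Igsf9b) were higher in cerebellum and 0 lower, beside 9.3 and 4.3% of all tested rows. The 9 genes together took 0.822 and 0.676% of all counts in cerebellum and 0.185 to 0.732% in forebrain, with the lowest shares in cortex 3 and hippocampus 4. Of the 9, 1 rose and 1 fell in cerebellum, beside 3.9% of all tested rows that rose and 3.78% that fell (edgeR). These are 2 genes among 9, with a median log2 fold change of -0.06 over the 9 and 0.002 over all tested rows. Between cortex and hippocampus 0 of the 9 passed in edgeR or DESeq2, and 0 had an unadjusted p under 0.05. Of all tested rows 0.0% passed in edgeR, with 68 at an unadjusted p under 0.05, and 1 passed in DESeq2. In CPM, 0 of the 9 separated cortex from hippocampus in either direction, beside 2.44% of rows that were higher in cortex and 1.45% that were lower.

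**Figure D1:**
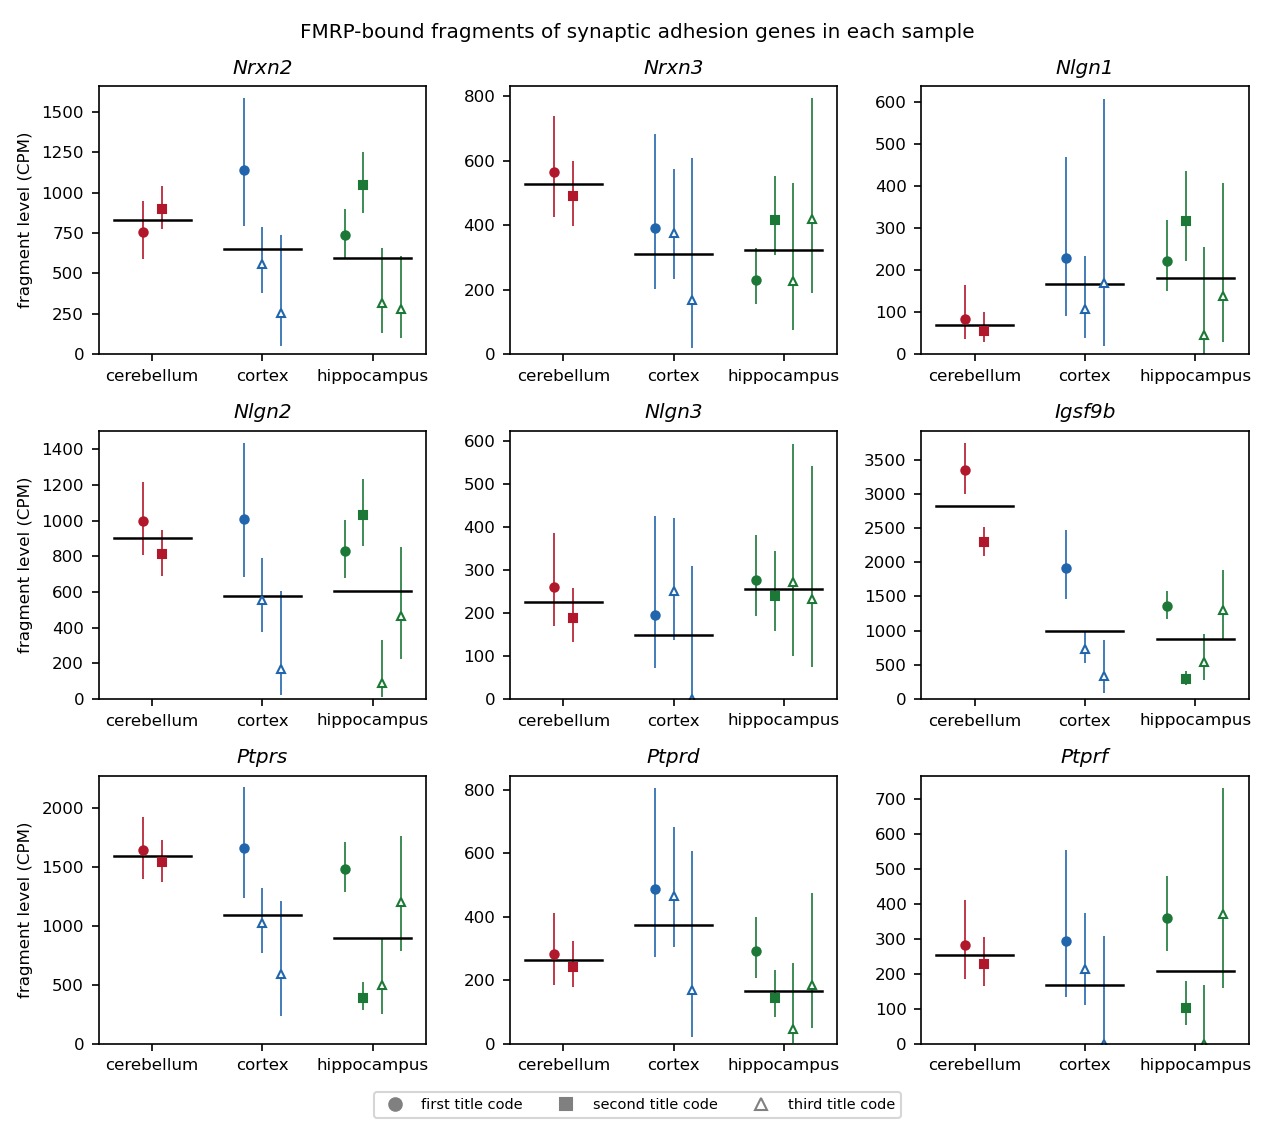
CPM of each gene (vertical axes, linear, each from 0) in each of the 9 samples, with exact 95% intervals for counting error, the mean of each region as a black line and the title code as the marker. The cerebellum samples of Igsf9b, at 3352 and 2300 CPM, stand above all 7 forebrain samples, and those of Nlgn1, at 83.8 and 55.7 CPM, stand below 6 of 7.

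Among the presynaptic neurexins, Nrxn2 had 754.3 and 901.8 CPM in cerebellum, 1139, 555.7 and 252.1 CPM in cortex, and 736.7, 1048, 319 and 278.7 CPM in hippocampus 1+2, 3, 4 and 5. Cerebellum lay inside the forebrain range, with 2 forebrain samples above it and 5 below. The log2 fold change between cerebellum and forebrain was -0.47 (SE 0.48, adjusted p = 0.742, edgeR), and without the block it was 0.32 (adjusted p = 0.818, edgeR), so no direction is given for Nrxn2. Between cortex and hippocampus it was 0.24 (SE 0.5, adjusted p = 0.999, edgeR), and -0.47 without the block.

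Nrxn3, the other neurexin, had 565.7 and 491.4 CPM in cerebellum, 390.6, 376.5 and 168.1 CPM in cortex, and 230.2, 417.7, 227.9 and 418 CPM in hippocampus. Both cerebellum samples stood above all 7 forebrain samples on library totals, as was the case for 9.3% of all tested rows. The fitted difference of 0.48 (SE 0.47, adjusted p = 0.727, edgeR) did not pass the test. It was -0.24 without cerebellum 1. The regions came in the order cerebellum, hippocampus, cortex, with means of 528.6 ± 52.5 (SD, n = 2), 323.4 ± 109 (n = 4) and 311.7 ± 124.6 CPM (n = 3), and cortex and hippocampus overlapped. Of the counts on the neurexin pair, Nrxn2 took 57.1 and 64.7% in cerebellum and 40.0 to 76.2% in forebrain.

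The neuroligins face the neurexins on the postsynaptic side, and Nlgn1, the member known for excitatory synapses, was the only one of the 3 to pass the test. It had 8 and 11 counts in cerebellum, which is 83.8 CPM (95% interval 36.2 to 165.1) and 55.7 CPM (27.8 to 99.7). It had 227.9, 107.6 and 168.1 CPM in cortex and 222.6, 315.4, 45.6 and 139.3 CPM in hippocampus 1+2, 3, 4 and 5. By mean, hippocampus came before cortex and cerebellum, and hippocampus and cortex overlapped. The forebrain samples were above both cerebellum samples except hippocampus 4, whose value rests on 1 count (95% interval 1.15 to 253.9 CPM).

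Nlgn1 fell in cerebellum, with a fitted log2 difference of -2.12 (SE 0.63, adjusted p = 0.0139, edgeR), and both cerebellum samples were below 6 of 7 forebrain samples. It passed the filter on low counts only through forebrain samples, as did 57 of the 65 rows that fell. Within the first title code the log2 ratio was -1.25, and within the second, which sets cerebellum 2 against hippocampus 3 alone, it was -3.11. In edgeR the difference was -2.89 without cerebellum 1 and -1.23 without cerebellum 2, fits that leave 1 cerebellum sample. The call was lost when cortex 1 (-2.35, adjusted p = 0.196, edgeR) or hippocampus 5 (-2.07, adjusted p = 0.0522, edgeR) was left out. Nlgn1 did not pass the filter without hippocampus 1+2 or without hippocampus 3 and could not be tested there. It also missed the threshold without the block (-1.42, adjusted p = 0.141, edgeR), in DESeq2 (-2.07, adjusted p = 0.119) and with library totals alone (-1.96, adjusted p = 0.0898, edgeR). Without cortex 3, hippocampus 3 and hippocampus 4 the difference was -1.24 (edgeR), which under the block rests on cerebellum 1.

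Nlgn2, the neuroligin of inhibitory synapses, had 995.2 and 810.6 CPM in cerebellum, 1009, 555.7 and 168.1 CPM in cortex, and 828.8, 1031, 91.1 and 464.4 CPM in hippocampus. The groups overlapped, and the samples of the third title code (cortex 2 and 3, hippocampus 4 and 5) were the lowest 4. The log2 fold change of cerebellum over forebrain was -0.26 (SE 0.47, adjusted p = 0.895, edgeR) and changed sign without the block (0.52, adjusted p = 0.681, edgeR). Within the first title code it was 0.30 and within the second -0.96.

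Nlgn3 had 261.9 and 187.5 CPM in cerebellum, 195.3, 251 and 0 CPM in cortex, and 276.3, 238.7, 273.4 and 232.2 CPM in hippocampus. For the 0 in cortex 3 the limit taken as 3 counts is 252.1 CPM and the exact interval reaches 310.0 CPM, so a lower level there was not detectable. Its difference was -0.06 between cerebellum and forebrain (SE 0.54, adjusted p = 0.989, edgeR) and -0.82 between cortex and hippocampus (SE 0.58, adjusted p = 0.999, edgeR).

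The share of each neuroligin within the family does not depend on the scaling of the libraries. Nlgn1 took 6.25% (95% Wilson interval 3.2 to 11.8%) and 5.29% (2.98 to 9.22%) of neuroligin counts in cerebellum. In the forebrain samples its share ran from 11.1 to 50.0% with a median of 16.7%, above cerebellum in 7 of 7. The best counted forebrain samples were hippocampus 1+2 with 16.8% (11.9 to 23%) and hippocampus 3 with 19.9% (14.8 to 26.2%). The intervals of cortex 1 (7.93 to 29.4%) and cortex 2 (5.51 to 23.4%) overlapped that of cerebellum 1. So did those of hippocampus 4 (1.99 to 43.5%) and hippocampus 5 (5.84 to 39.2%). The highest value, in cortex 3, rests on 4 counts. Nlgn2 took 74.2 and 76.9% in cerebellum against 22.2 to 70.5% in forebrain, and Nlgn3 took 19.5 and 17.8% against 0 to 66.7%, so that Nlgn3 overlapped and Nlgn2 did not. The Nlgn2 intervals in cortex 1 (55.8 to 81.8%) and cortex 3 (15.0 to 85.0%) held both cerebellum shares. Those of cortex 2, hippocampus 1+2, hippocampus 3 and hippocampus 5 overlapped the interval of cerebellum 1 (66.0 to 81.0%), and that of hippocampus 4 did not. These shares are a description and were given no test.

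**Figure D2:**
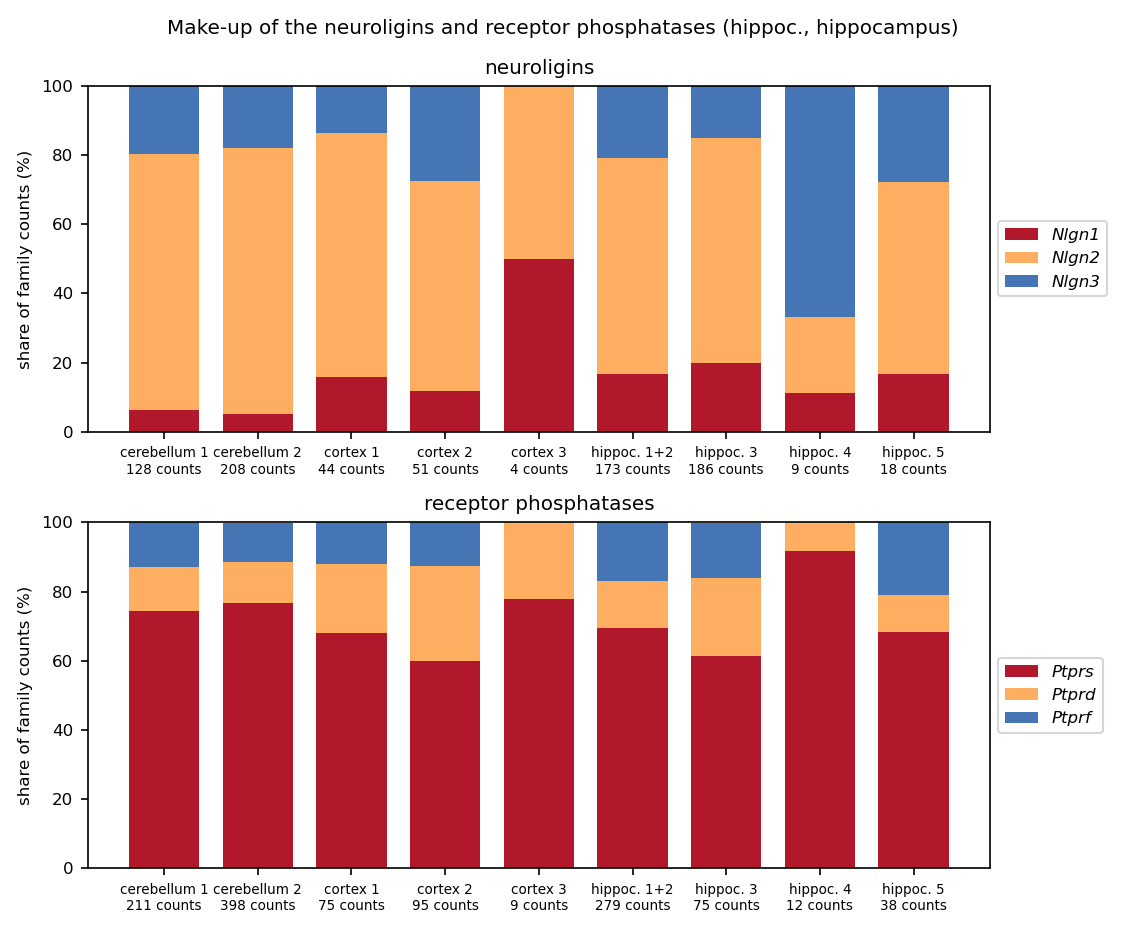
Share of each gene (percent of the family's counts, vertical axis) among the neuroligins and among the receptor phosphatases in each sample, with the family's counts below each bar. Nlgn1 holds 6.25 and 5.29% of neuroligin counts in cerebellum and 11.1 to 50.0% in forebrain, where cortex 3 has 4 and hippocampus 4 has 9 neuroligin counts in all.

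Igsf9b, the adhesion protein of inhibitory synapses, had the highest mean of the 9 genes in cerebellum. It had 320 and 454 counts there, which is 3352 CPM (95% interval 2996 to 3740) and 2300 CPM (2094 to 2521). It had 1921, 735 and 336.2 CPM in cortex and 1358, 298.3, 546.8 and 1300 CPM in hippocampus 1+2, 3, 4 and 5. Every forebrain sample was below both cerebellum samples, and the highest, cortex 1, had an interval from 1462 to 2477 CPM that reaches into that of cerebellum 2. By its mean Igsf9b ranked 6 among all rows in cerebellum, 65 in cortex and 47 in hippocampus.

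Igsf9b rose in cerebellum, with a fitted log2 difference of 1.74 (SE 0.55, adjusted p = 0.0215, edgeR). Its mean was 2826 ± 744.1 CPM over the 2 cerebellum samples and 927.9 ± 610.8 CPM over the 7 forebrain samples (SD). The log2 ratio was 1.23 within the first title code and 2.34 within the second. DESeq2 called it as well (1.75, adjusted p = 0.00809), as did edgeR without the block (1.70, adjusted p = 0.0187). Without cortex 3, hippocampus 3 and hippocampus 4 the difference was 1.26 (edgeR). Cerebellum 2 was then the only sample of its title code, so under the block that value rests on cerebellum 1. Leaving out 1 sample kept the direction, with 2.70 without cerebellum 1, 1.25 without cerebellum 2 and 1.27 without hippocampus 3 (edgeR). Each of these fits rests on 1 cerebellum sample under the block. The call held without cortex 3 (1.72, adjusted p = 0.0257, edgeR). Elsewhere the adjusted p in edgeR was 0.393 without cortex 1 (2.27), 0.128 without cortex 2 (1.76), 0.0617 without hippocampus 1+2 (1.64), 0.130 without hippocampus 4 (1.82) and 0.193 without hippocampus 5 (1.72). With library totals alone it was 0.332 (1.88, edgeR). Cortex and hippocampus did not differ in the test (-0.21, SE 0.5, adjusted p = 0.999, edgeR) and overlapped.

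**Figure D3:**
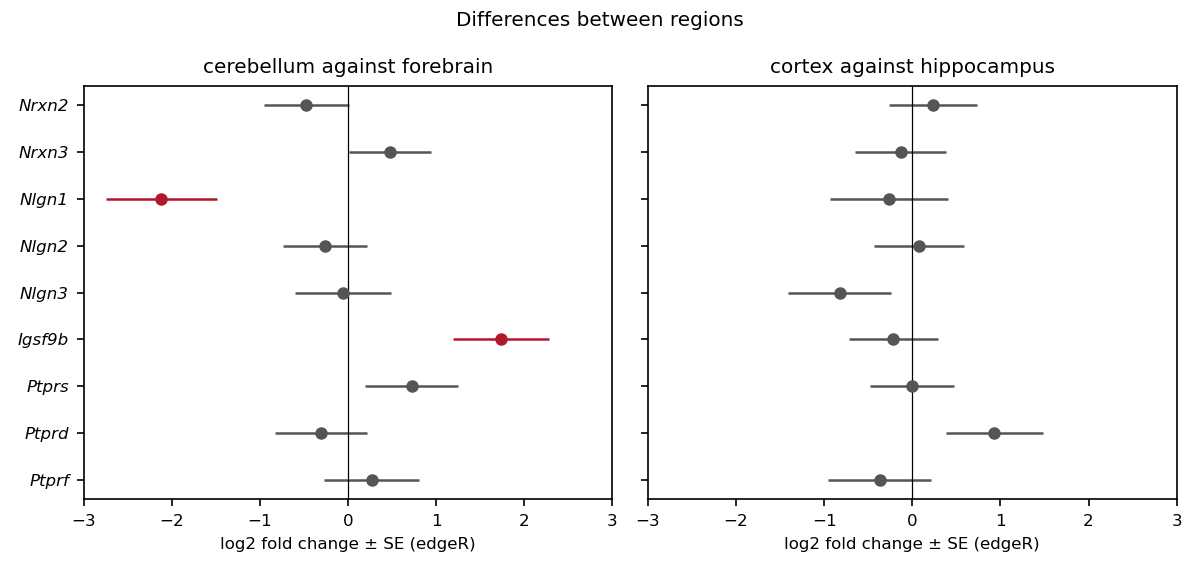
Log2 fold change with its approximate SE (horizontal axes) for each gene between cerebellum and forebrain and between cortex and hippocampus, edgeR over 9 samples. Nlgn1 at -2.12 and Igsf9b at 1.74 are drawn in red as the genes past the threshold in the first comparison, and none is in the second.

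Of the presynaptic receptor phosphatases, Ptprs was the most abundant in each region. It had 1645 and 1545 CPM in cerebellum, 1660, 1022 and 588.3 CPM in cortex, and 1489, 392.1, 501.3 and 1208 CPM in hippocampus. Cerebellum was above 6 of 7 forebrain samples and below cortex 1. The difference of 0.72 (SE 0.53, adjusted p = 0.567, edgeR) did not pass the test, and it was 0.24 within the first title code and 1.37 within the second. By mean ± SD, cerebellum (1595 ± 70.4 CPM) came before cortex (1090 ± 539.1 CPM) and hippocampus (897.4 ± 534.9 CPM), with overlap between neighbours.

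Ptprd had 282.9 and 243.2 CPM in cerebellum, 488.3, 466.1 and 168.1 CPM in cortex, and 291.6, 144.9, 45.6 and 185.8 CPM in hippocampus. Cortex 1 and 2 were above all 4 hippocampus samples and cortex 3, with 2 counts, was among them. The log2 fold change of cortex over hippocampus was 0.93 (SE 0.55, unadjusted p = 0.0877, adjusted p = 0.999, edgeR), 0.43 within the first title code and 1.45 within the third. Between cerebellum and forebrain it was -0.30 (SE 0.52, adjusted p = 0.886, edgeR). Among the phosphatase counts Ptprd took 12.8 and 12.1% in cerebellum, 20, 27.4 and 22.2% in cortex, and 13.6, 22.7, 8.33 and 10.5% in hippocampus, so that hippocampus 3 stood among the cortex samples.

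Ptprf, which encodes LAR, had 282.9 and 228 CPM in cerebellum, 293, 215.1 and 0 CPM in cortex, and 360.7, 102.3, 0 and 371.6 CPM in hippocampus. The limits of 3 counts for the 0 in cortex 3 and in hippocampus 4 are 252.1 and 136.7 CPM. Neither comparison passed, with 0.27 for cerebellum over forebrain (SE 0.54, adjusted p = 0.914, edgeR) and -0.37 for cortex over hippocampus (SE 0.58, adjusted p = 0.999, edgeR).

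Within the title codes the genes did not move together between cerebellum and forebrain. On TMM-scaled CPM, Igsf9b and Ptprs were higher and Nrxn2 and Nlgn1 lower within both codes. Nrxn3, Nlgn2 and Nlgn3 were higher within the first code, at 1.08, 0.30 and 0.30, and lower within the second, at -0.37, -0.96 and -0.96. Ptprd was at -0.25 and 0.14 and Ptprf at -0.05 and 0.55. On library totals the second code gave 0.23 for Nrxn3, -0.35 for Nlgn2 and -0.35 for Nlgn3. The TMM factor of hippocampus 3, the only forebrain sample of the second code, was 0.644, against 0.982 in cerebellum 2.

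**Figure D4:**
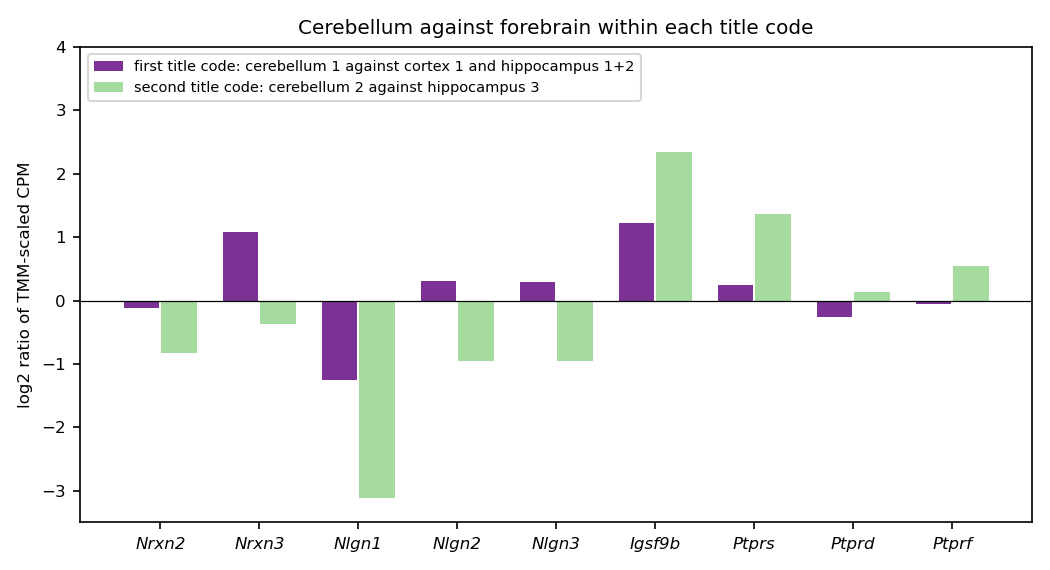
Log2 ratio of TMM-scaled CPM (vertical axis) of cerebellum over forebrain within the first and the second title code, for each gene. Igsf9b is at 1.23 and 2.34 and Nlgn1 at -1.25 and -3.11, while Nrxn3, Nlgn2, Nlgn3, Ptprd and Ptprf change sign between the codes.

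Levels of different genes were compared per kb of exon, as mean CPM divided by the length of all annotated exons. On this scale Ptprs led in each region, with 228.7 CPM per kb in cerebellum, 156.3 in cortex and 128.7 in hippocampus. Igsf9b followed in cerebellum with 169.4 CPM per kb, against 59.8 in cortex and 52.5 in hippocampus, where Nlgn2 (100.6 and 105.2) and Nrxn2 (70.4 and 64.6) stood above it. Nlgn1 was the lowest in each region, with 5.89, 14.2 and 15.2 CPM per kb in cerebellum, cortex and hippocampus. Where on a gene the fragments lie is not in the table, so intronic fragments would raise the values of genes with long introns, such as Nlgn1 and Ptprd.

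The coding sequences were also searched for AGGA and TGGA, letters that have been described as enriched at FMRP-bound sites, on the coding strand only and with overlaps counted. The 9 genes held 10.8 (Nlgn2) to 15.2 (Ptprd) matches per kb of coding sequence. The median was 16.0 per kb over the 1640 tested rows with a coding transcript and 15.8 per kb over all 21754 coding genes. Igsf9b had 13.2 and Nlgn1 12.3 matches per kb. The coding sequence searched is 4323 of 16144 transcript bases in Igsf9b and 2529 of 11807 in Nlgn1. The part of these letters in the differences between regions was not tested. A match is a description of the letters and no binding site. Coding length ran from 2508 bases in Nlgn2 to 5736 in Ptprd, and 6 of the 9 were longer than 71.5 to 83.0% of the tested rows, while the neuroligins were longer than 40.1 to 40.6% of them.

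By the pattern over the 9 samples, the tested rows nearest to Igsf9b were Prex2, a Rac exchange factor, Ncor1, a corepressor of nuclear receptors, and Cacna1e, a calcium channel subunit. Their root mean square differences from Igsf9b on the centred log2 CPM scale were 0.34, 0.35 and 0.39, against a median of 1.14 over 1711 rows. Nearest to Nlgn1 were Scamp5, a secretory carrier membrane protein, Nrg3, a neuregulin, and Tmem178b, with 0.42, 0.43 and 0.44. Nearest to Ptprs were Abca3, a lipid transporter, Ncor1, and Crebbp, a histone acetyltransferase, with 0.14, 0.21 and 0.24. The samples share their depth and library make-up across all rows, so nearness is a description.

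Of other synaptic adhesion genes, sorted into lists by role, 109 rows were in the table and 55 passed the filter, and 5 of the 55 rose in cerebellum and 4 fell (edgeR). Of all tested rows 7.67% passed, and the median log2 fold change was -0.32 over the 55 and 0.002 over all tested rows. Of the 9 calls, 7 are rows that passed the filter only through the group in which they are high, so the counts describe the rows that could be tested and support nothing about the lists. Unc5c and Unc5b, netrin receptors that also bind FLRT proteins, rose by 3.06 (SE 0.54, adjusted p = 4.49e-06, edgeR) and 2.89 (SE 0.77, adjusted p = 0.00519, edgeR). Lrrtm3, a postsynaptic neurexin ligand, averaged 282.3 ± 134.1 CPM (SD) over cerebellum and 26.6 ± 18.7 CPM over forebrain and rose by 2.93 (SE 0.8, adjusted p = 0.00634, edgeR). Cntn2, a contactin of axons, rose by 2.81 and Cadm3, a nectin-like adhesion protein, by 1.81.

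Of 11 tested rows on the list of ligands of the LAR-type phosphatases, 3 fell in cerebellum and 0 rose, beside 3.78% of all tested rows that fell and 3.9% that rose. All 3 passed the filter only through forebrain, so they could only be called lower, and none passed without the block (adjusted p from 0.0963 to 0.219, edgeR). They are Lrfn5, a leucine-rich repeat protein that binds these phosphatases (-2.13, SE 0.6, adjusted p = 0.00923, edgeR), Slitrk5, a Slitrk protein (-1.76, SE 0.56, adjusted p = 0.0255, edgeR), and Lrrc4c, a relative of the LAR ligand Lrrc4b that itself binds netrin-G1 (-1.91, SE 0.55, adjusted p = 0.011, edgeR). Lrfn5 had 84.3 ± 59.9 CPM in cerebellum and 226.4 ± 131.5 CPM in forebrain. Tenm3, a teneurin, had 190.5 ± 2.79 CPM in cerebellum and 638.3 ± 144.2 CPM in forebrain and fell, with a log2 difference of -1.66 (SE 0.5, adjusted p = 0.0169, edgeR), with both cerebellum samples below all 7 forebrain samples.

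These 9 calls moved with the settings and the samples. In DESeq2 4 of the 9 passed (Unc5c, Cntn2, Lrfn5 and Tenm3), with library totals alone 4 (Unc5c, Lrrtm3, Unc5b and Cntn2), without the block 6 and without a filter on low counts 0. Without cortex 1, 0 of the 9 passed (adjusted p from 0.171 to 0.941, edgeR) and Cadm3 changed sign to -1.68. Without cerebellum 1, 0 of 8 tested passed (0.211 to 0.947), and without cerebellum 2 Unc5c and Cntn2 passed of 9 (others 0.0529 to 1.0). Slitrk5 and Tenm3 missed the threshold without cortex 2 (0.0509 and 0.0712) and without hippocampus 4 (0.0805 and 0.0834), Unc5b and Cadm3 without hippocampus 1+2 (0.134 and 0.0562), Lrfn5, Lrrc4c and Slitrk5 without hippocampus 3 (0.0927 to 0.642), and Lrrc4c, Slitrk5 and Tenm3 without hippocampus 5 (0.106 to 0.180). Lrrtm3 was not tested without cerebellum 1, hippocampus 1+2 or hippocampus 3. Unc5c, Unc5b, Lrrtm3 and Cadm3 passed the filter only through cerebellum, and Lrfn5, Lrrc4c and Slitrk5 only through forebrain.

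**Figure D5:**
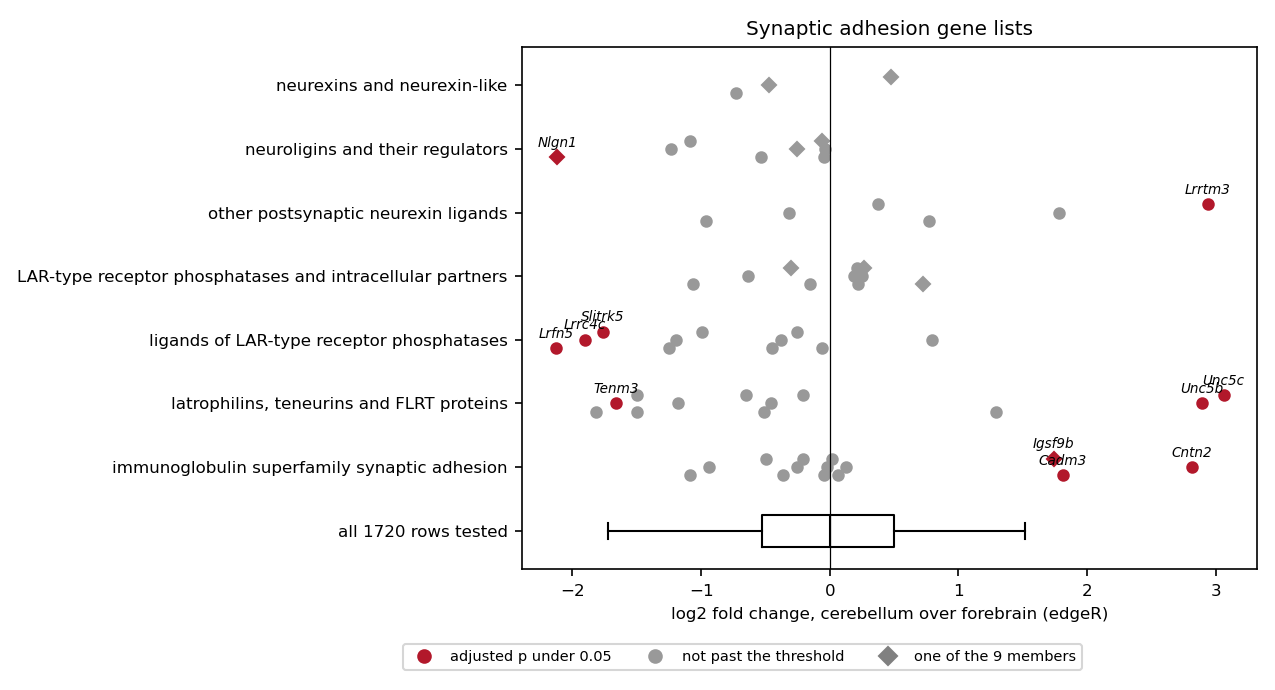
Log2 fold change of cerebellum over forebrain (horizontal axis) for every tested row of 7 lists of synaptic adhesion genes, with a box plot of all 1720 tested rows (quartiles, whiskers at percentiles 5 and 95). Red marks the rows past the threshold, from Lrfn5 at -2.13 to Unc5c at 3.06, and diamonds mark the 9 genes described above.

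Several of the highest rows of these lists did not pass. Adgrl1, a latrophilin that binds teneurins and neurexins, averaged 1688 ± 120.5, 1836 ± 1511 and 1126 ± 618 CPM (SD) in cerebellum, cortex and hippocampus. Ntrk3, which encodes the PTPσ ligand TrkC, had 807.4 ± 325, 470.9 ± 118 and 401.2 ± 163.8 CPM in cerebellum, cortex and hippocampus. Dlg4, which encodes the scaffold PSD-95 that binds neuroligins, had 328.2 ± 98.8, 793.5 ± 187.2 and 604.9 ± 271.6 CPM in the same order. Other rows among the 2 highest of their lists were Clstn1, Lrrtm2, Ctnnb1, Lrrc4b and Dscam, with means in cerebellum from 191.1 (Lrrtm2) to 481.9 CPM (Lrrc4b). Lrrtm2 is named by its place in its list, with means of 186.4 CPM in cortex and 91.3 CPM in hippocampus. These 8 rows had adjusted p from 0.185 (Dlg4) to 0.989 (Lrrc4b) between cerebellum and forebrain in edgeR.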

How the data were processed

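FMRP-bound RNA fragments were measured in 11 libraries of mouse brain at postnatal day 13, crosslinked with 3 doses of 400 mJ at 254 nm, per the labels' protocols. The authors deposited whole-number fragment counts per gene symbol. The submitters' processing notes name mm10, Bowtie 0.12.7 and Picard; the counter, annotation, use of strand and removal of duplicates are not given in the sources. Of 11 libraries, 10 have a region by their tissue label, and 1 with conflicting labels stayed out of the comparisons. Hippocampus 1 and 2 (chi-square per degree of freedom 1.03, against 1.51 to 22.1 in 13 other same-region pairs) were summed, which left 9 samples.

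CPM used library totals. Testing used edgeR 4.0.16 (R 4.3.3), TMM factors, filterByExpr by region, the title code as a block and 4 residual degrees of freedom; it was tested on simulated data. SEs are approximate, taken as the size of the fitted change over the root of its F statistic. Contrasts were cerebellum minus the mean of cortex and hippocampus, and cortex minus hippocampus. Alternatives included DESeq2 1.42.0, library totals, no filter, no block, 10 separate libraries and leaving out samples. Annotation and transcripts are GENCODE M21 (GRCm38). The genes, lists and tests were chosen with earlier results of these data known. Genes named are the 9 members, adhesion list rows past the threshold, the 2 highest rows of each list, and the 3 nearest patterns of Nlgn1, Igsf9b and Ptprs, the members of largest change. 1 row that this rule names is not reported here. Protein sequences were not used here.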

Additional observations from a re-analysis of the deposited data

Results flagged for a closer look

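The title of 1 library names cortex whereas its tissue label says hippocampus, and it entered no comparison of the report. The series' own text counts 4 libraries of cortex and 5 of hippocampus, which matches the titles. Its total was 30344 counts, so that a count of 0 allows up to 98.9 CPM, and 7 of the 9 genes had more than 3 counts in it. Nrxn2 had 395.5 CPM, Nlgn1 131.8 CPM, Nlgn2 296.6 CPM, Igsf9b 527.3 CPM, Ptprs 692.1 CPM, Ptprd 263.6 CPM and Ptprf 197.7 CPM. Nrxn3 and Nlgn3 had 2 counts each. Its Igsf9b level was below both cerebellum samples (3352 and 2300 CPM) and its Nlgn1 level above both (83.8 and 55.7 CPM), as in most forebrain samples. No hippocampus sample stood apart from the other 3 by Dixon's criterion in any of the 9 genes.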

How the results depend on the processing

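Between cerebellum and forebrain 132 rows and 2 of the 9 genes passed. With library totals alone 54 rows and 0 of the 9 passed, in DESeq2 87 and 1, without a filter on low counts 1 and 0, and without cortex 3, hippocampus 3 and hippocampus 4 215 and 1. With the conflicting library as cortex and the block also removed, 154 rows and 1 of the 8 genes that could be tested passed (Nlgn1 did not pass the filter). Leaving out 1 sample gave 2 to 176 rows and 0 to 2 of the 9, with 81 rows and 0 of the 8 tested without hippocampus 1+2. Between cortex and hippocampus 0 rows passed, against 1 in DESeq2, 1 with 10 separate libraries, 3 without those 3 samples, 1 with the conflicting library as cortex and no block, and 0 to 1 when 1 sample was left out. The causes were not tested.

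Without the block for the title code 156 rows and 1 of the 9 passed. Between cerebellum and forebrain Nrxn2 (0.32), Nlgn2 (0.52) and Nlgn3 (0.065) then changed sign, and between cortex and hippocampus Nrxn2 (-0.47), Nlgn2 (-0.61) and Ptprs (0.013). Across genes, the 8 pairs of samples with the same title code had a median correlation of 0.13 (-0.067 to 0.484), and the 18 pairs with different codes a median of -0.05 (-0.283 to 0.101). Same-coded samples thus deviated together more on the median, but not in every pair, and whether the codes pair the samples is not settled by these values.

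None of the other log2 changes that turned sign had passed the test, apart from Cadm3. Between cerebellum and forebrain these were Nlgn3 with library totals (0.054), Nlgn2 (0.068), Nlgn3 (0.27) and Ptprd (0.010) without a filter, Nlgn2 (0.27), Nlgn3 (0.23) and Ptprf (-0.020) without the 3 samples, and Nrxn2 (0.30), Nlgn2 (0.53) and Nlgn3 (0.10) with the conflicting library and no block. Between cortex and hippocampus they were Nrxn3 (0.15), Nlgn1 (0.062) and Ptprs (0.21) with library totals, Ptprs (0.0070) in DESeq2, Nrxn3 (0.13), Nlgn1 (0.0039) and Ptprs (0.15) without a filter, Nrxn3 (0.22) without the 3 samples, and Nrxn2 (-0.66) and Nlgn2 (-0.83) with the conflicting library and no block. The changes under this last setting also occurred when the block alone was removed. Library totals moved the median of all rows to 0.12 and 0.24. Leaving out 1 sample gave ranges between cerebellum and forebrain of -0.24 to 1.16 for Nrxn3, -0.92 to 0.32 for Nlgn2, -0.43 to 0.37 for Nlgn3, -0.017 to 0.93 for Ptprf and -1.68 to 2.55 for Cadm3. Between cortex and hippocampus they were -0.029 to 0.45 for Nrxn2, -0.62 to 0.079 for Nrxn3, -0.35 to 0.33 for Nlgn1, -0.43 to 0.56 for Nlgn2, -0.71 to 0.12 for Igsf9b, -0.17 to 0.25 for Ptprs and -0.80 to 0.29 for Ptprf. Without hippocampus 1+2 the last comparison gave -0.029 for Nrxn2, -0.17 for Nlgn2 and 0.12 for Ptprs. Without cortex 2 it gave -0.028 for Nrxn2 and -0.32 for Nrxn3. Igsf9b stayed higher in cerebellum under every alternative, but all of them reuse the same cerebellum samples. Among fits that left out 1 sample its call held only without cortex 3. It was also lost with library totals and without a filter. Nlgn1 stayed lower where it was tested, but it had passed the filter only through forebrain. It dropped out without hippocampus 1+2, without hippocampus 3 and with the conflicting library as cortex, so its constant direction adds no support. The level that a count of 0 allows ran from 15.2 CPM (cerebellum 2) to 252.1 CPM (cortex 3), which limits Nlgn1, Nlgn3, Ptprd and Ptprf.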

Other observations

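Within hippocampus, sample 3 ordered these genes differently from sample 1+2. Nrxn2 and Nlgn2 ranked 10 and 12 among all rows in hippocampus 3, at 1048 CPM (95% interval 871.4 to 1251) and 1031 CPM (855.9 to 1232). In hippocampus 1+2 they ranked 96 and 80, at 736.7 CPM (596.8 to 899.6) and 828.8 CPM (679.9 to 1001). Igsf9b and Ptprs ranked 182 and 97 in hippocampus 3, at 298.3 CPM (207.8 to 414.9) and 392.1 CPM (287.1 to 523). In hippocampus 1+2 they ranked 30 and 25, at 1358 CPM (1166 to 1574) and 1489 CPM (1287 to 1714). The samples carry different title codes, and the intervals cover counting error only. Hippocampus 4, of the third code, had 2 counts for Nlgn2 and 6 for Nlgn3, the only sample in which Nlgn3 exceeded Nlgn2.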
